A study of Mus musculus with 8 samples.

Results

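Solute carriers are membrane proteins that move small molecules across the plasma membrane or the membranes of organelles, and their genes carry symbols that begin with Slc and the number of a family. The genes described here were the protein-coding rows of the deposited table whose symbol begins with Slc and a digit and that held at least 100 reads over the 8 libraries. 7 such genes were left out by name, so the class counts and rankings below do not cover them. This gave 178 of the 371 protein-coding Slc genes and 42 of their 49 families, in a table of 54532 genes. A further 186 Slc genes held fewer than 100 reads, 94 of them none. Just outside the minimum stood Slc52a3 with 99 reads and Slc18a2 with 98, and just inside it Slc45a3 with 100 and Slc29a2 with 103. Members were thus chosen by their symbol and their read total over all groups, and that they were detected is not a result. Each of the 178 passed the test's filter on low counts.

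Bulk RNA sequencing measured the transcripts of macrophages derived from mouse bone marrow, which are grown from bone marrow precursors in culture. Control cells received no stimulus. LPS cells received lipopolysaccharide, a component of the bacterial outer membrane, at 100 ng/ml for 4 h. The IL-4 group received interleukin 4, a type 2 cytokine, at 20 ng/ml for 24 h. The cells called IL-4 then LPS received IL-4 at 20 ng/ml for 24 h, were washed, and were then given LPS at 100 ng/ml for 4 h. Strain, sex and age are not given in the sources used here, and neither is whether the IL-4 cells were also washed. There were 2 libraries per group, numbered 1 and 3 in the labels and called replicates here, and p-values measure only the spread between these libraries, which may be technical.

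Solute carriers differ in how they are driven. Some let a substrate run down its own gradient, others couple it to sodium or protons, and exchangers trade 1 solute for another. In macrophages they are known for supplying amino acids and glucose to activated cells and for moving iron, zinc and copper. They also move peptides, sugars and nucleosides out of the lysosome, where ingested material is broken down. Carriers of the SLC25 family serve the inner mitochondrial membrane, and those of the SLC35 family bring nucleotide sugars into the Golgi and the endoplasmic reticulum for glycosylation.

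Libraries held 7924932 to 9431852 counts, and the 178 genes took 1.36% to 1.55% of them. Macrophage markers were present in every library, with a summed level of 12903 to 25426 CPM, the read count scaled to a common library total. Of 8 lymphocyte markers 7 held no read, as did 4 of 8 erythroid markers. The summed level of 7 stromal markers was 3.96 to 5.88 CPM in control and 18.2 to 46.1 CPM after LPS, and that of 7 dendritic cell markers 1.38 to 1.58 CPM and then 7.18 to 12.5 CPM. The summed level of 8 neutrophil markers was 0.865 to 3.46 CPM in control and 3.50 to 8.01 CPM after LPS. S100a8 alone held 2.66 and 5.53 CPM of the latter. These sums rest on few markers. By edgeR's test 1 of 4 tested stromal markers, 2 of 3 dendritic and 0 of 1 neutrophil markers passed as higher after LPS. With a term for the replicate number these were 1, 3 and 1. The median log2 fold change of the tested stromal markers was 0.30. The part of all these markers in the results below was not tested. In bulk samples, fewer cells of a type and less RNA per cell cannot be told apart. CPM were scaled by the trimmed mean of M-values (TMM), and all directions below are relative to that scaling. When only library size was used, the median over all genes after LPS moved on the log2 scale from -0.01 to -0.62.

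Per kilobase of gene length, the scale on which levels of different genes can be set side by side, the highest level in control cells was that of Slc48a1, a heme transporter of the endolysosome, at 155 CPM per kilobase. It was followed by Slc6a6, the taurine transporter, at 145, by the mitochondrial adenine nucleotide carrier Slc25a5 at 133 and by Slc3a2, the shared heavy chain of several amino acid exchangers, at 101. After LPS the order was different. Slc2a6, a hexose transporter of internal membranes, reached 507 CPM per kilobase, followed by Slc3a2 and the lysosomal peptide and histidine transporter Slc15a3, both at 285, and by Slc31a2, a copper transporter, at 170. In the IL-4 group Slc48a1 stood highest again, at 219, and after IL-4 then LPS it was Slc2a6, at 571.

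**Figure D1:**
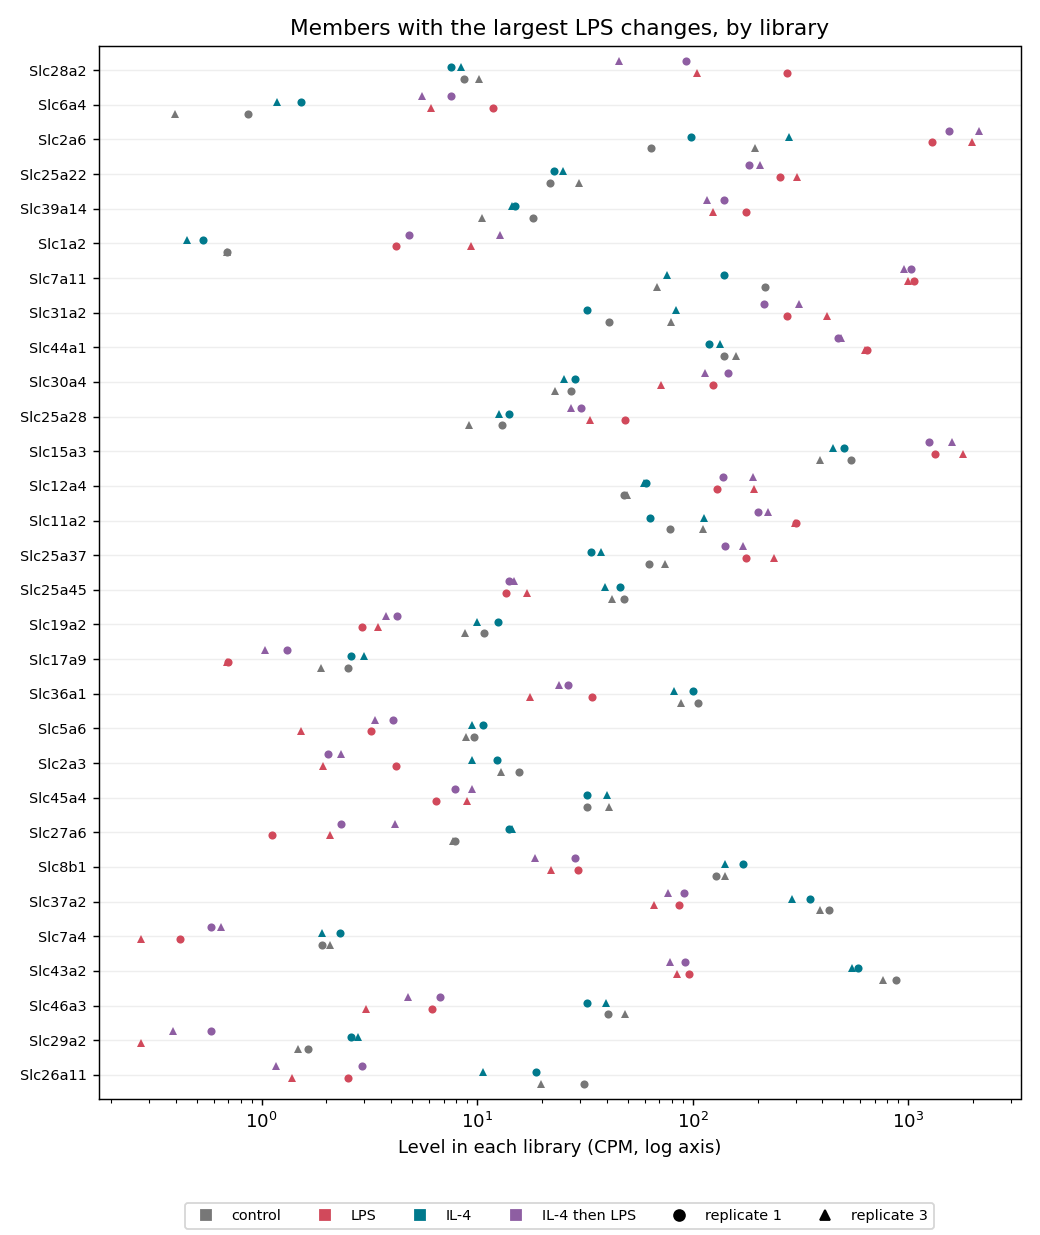
Level of the 15 members with the largest increase and the 15 with the largest decrease after LPS, in CPM on a log axis, with 1 point for each of the 8 libraries, coloured by group and shaped by replicate number. For Slc43a2 the control libraries stand at 877 and 767 CPM and the LPS libraries at 96.0 and 84.3, and the 0 of Slc29a2 in LPS replicate 1 has no place on a log axis and is not drawn.

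LPS against control asked how the carriers responded to a bacterial stimulus in cells without IL-4. 39 of the 178 rose and 50 fell. With edgeR's quasi-likelihood test, adjusted by Benjamini and Hochberg's method across 12234 genes, this is 21.9% of members that rose beside a background of 21.8% of all genes, and 28.1% that fell beside 18.6%. The share that rose was thus near the background, and the share that fell lay above it, a difference that was not tested. The median log2 fold change was -0.24 over members and -0.01 over all genes. With a term for the replicate number 48 members rose and 69 fell, where 28.2% and 25.5% of all genes did. With library-size scaling 24 rose and 104 fell, beside 12.6% and 47% of all genes. Increases then made up 18.8% of the members' calls in place of 43.8%, and 21.2% of the calls over all genes in place of 53.9%. Fewer members fell without LPS replicate 3, and the share over all genes was not worked out for that fit.

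Counts by substrate class stand beside a background of 21.8% of all genes that rose and 18.6% that fell, and no class was tested against it. More members rose than fell among zinc, copper and other divalent metal transporters, where 9 of 23 rose and 3 fell. Among amino acid transporters 7 of 19 rose and 5 fell, but with the replicate term 7 rose and 8 fell. More fell than rose among nucleotide sugar and other Golgi or endoplasmic reticulum carriers, where 10 of 21 fell and 1 rose, among vitamin and heme transporters, where 6 of 8 fell and 1 rose, and among sugar transporters, where 5 of 11 fell and 2 rose. With library-size scaling metal transporters turned to 4 that rose and 11 that fell, and amino acid transporters to 4 and 10, where 12.6% of all genes rose and 47% fell. Golgi carriers were then 0 and 18, vitamin and heme transporters 1 and 7, and sugar transporters 2 and 6. With the replicate term, where 28.2% of all genes rose and 25.5% fell, metal transporters were 10 and 5. Golgi carriers were 2 and 11 with that term, vitamin and heme transporters 1 and 6, and sugar transporters 3 and 5.

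**Figure D2:**
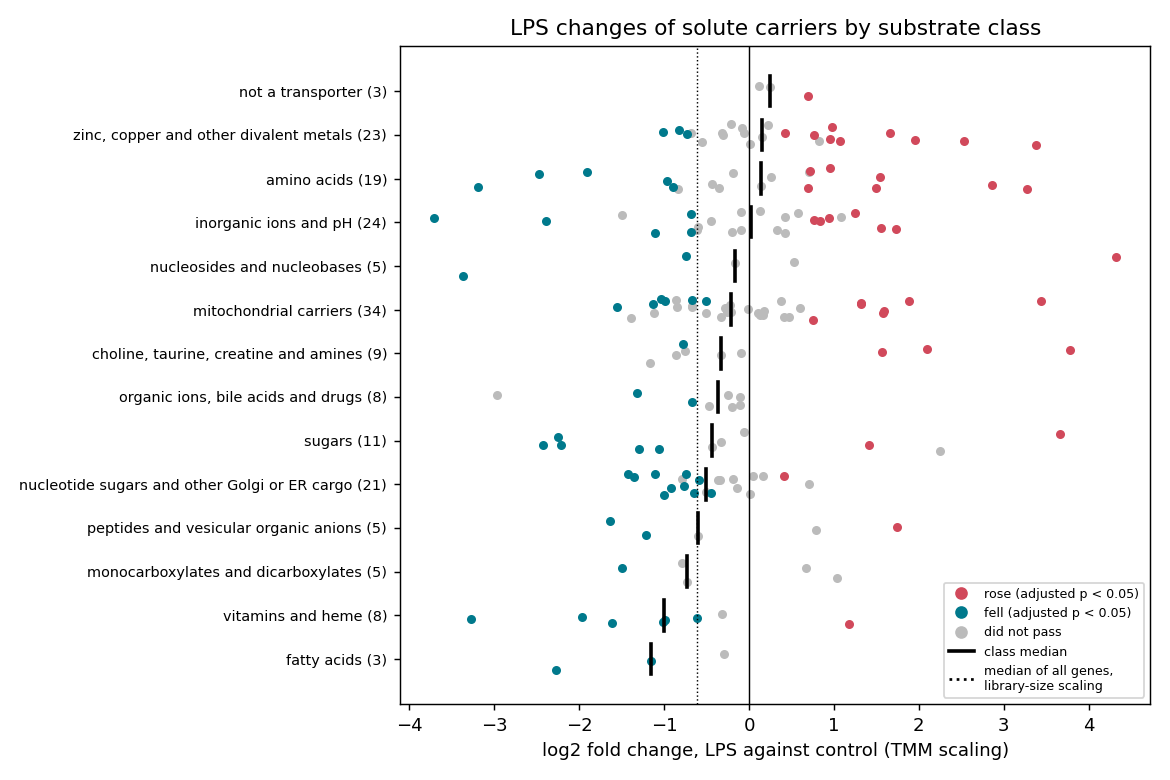
Log2 fold change in LPS against control (horizontal) of each of the 178 members, 1 point each, by substrate class with its number of members, coloured by whether the member rose, fell or did not pass (edgeR, adjusted p under 0.05). Black bars are class medians, from -1.15 for fatty acid transporters to 0.15 for amino acid and metal transporters among transporter classes. The dotted line is the median of all genes under library-size scaling, -0.62, drawn on an axis of TMM-scaled values. All genes shift down under that scaling, so the line does not mark where the sign of a member would turn.

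The bases before the start of 135 members were found in the RefSeq promoter table (GRCm38.p6). In the 250 bases before each start, 5 motifs were searched on both strands: an NF-kB site, the interferon-stimulated response element GAAANNGAA, the AP-1 site TGANTCA, the C/EBP-ATF response element TGATGNAAT and the metal response element TGCNCNCG. The NF-kB site was in 8.33% of the windows of members that rose after LPS (4 of 48, from 3 genes). It was in 14.3% of those that fell (7 of 49, from 6 genes), in 5.68% of those of other members and in 7.25% of all windows. Windows of the same gene can overlap, so a site can be counted more than once, as in Slc7a7. For the interferon-stimulated element the same 4 shares were 8.33%, 4.08%, 4.55% and 7.13%. For the AP-1 site they were 2.08%, 2.04%, 7.95% and 6.75%, the first 2 from 1 window each. For the metal response element they were 16.7%, 16.3%, 15.9% and 10.6%. The C/EBP-ATF element was in 0% of the members' windows and in 0.816% of all windows. A match is a description of letters and does not show that a factor binds. Stretches outside annotated exons, picked after the search, are shown with the match in capitals for members whose values follow: 2 amino acid or osmolyte transporters and 1 mitochondrial carrier that rose, 1 zinc transporter that rose, and 1 Golgi carrier that fell. No match says only that these letters are not in the window. The Slc25a22 stretch stands before a RefSeq start that lies inside the span given for that gene below.
Slc6a12, NF-kB site, chr6:121342411-121342480, plus strand: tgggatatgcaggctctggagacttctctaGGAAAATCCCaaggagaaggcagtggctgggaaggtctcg
Slc7a7, NF-kB site, chr14:54417787-54417856, minus strand: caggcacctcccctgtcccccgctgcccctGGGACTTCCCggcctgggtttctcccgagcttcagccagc
Slc25a22, interferon-stimulated response element, chr7:141435416-141435484, minus strand: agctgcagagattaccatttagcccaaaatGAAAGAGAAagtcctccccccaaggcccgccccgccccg
Slc30a4, metal response element, chr2:122702750-122702817, minus strand: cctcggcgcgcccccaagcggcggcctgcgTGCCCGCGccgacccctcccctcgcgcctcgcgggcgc
Slc35c1, NF-kB site, chr2:92459883-92459952, minus strand: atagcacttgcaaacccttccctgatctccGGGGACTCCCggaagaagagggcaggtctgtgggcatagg

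Among amino acid transporters, the cystine and glutamate exchanger and its partners rose. Slc7a11, the exchanger that imports cystine for glutathione synthesis, held 217 and 68.2 CPM in control replicates 1 and 3 and 1066 and 1001 CPM after LPS. The groups did not overlap, and control replicate 1 stood well above control replicate 3. The log2 fold change was 2.86 ± 0.52 (SE, adjusted p 0.00343), 3.86 without control replicate 1 and 2.21 without control replicate 3. Slc3a2, the heavy chain that carries Slc7a11, Slc7a5 and others to the surface, rose from 366 and 346 to 858 and 1154 CPM, a log2 fold change of 1.498 ± 0.21. Slc7a5, which takes up large neutral amino acids, rose from 25.8 and 21.6 to 69.7 and 68.1 CPM (1.54 ± 0.19), and Slc7a8, a related exchanger, from 232 and 299 to 483 and 545 CPM (0.95 ± 0.18, adjusted p 0.00472). The call of Slc7a8 was lost without control replicate 1 (0.0532). The glutamate transporter Slc1a2 was low and rose from 0.692 CPM in both control libraries to 4.20 and 9.40 CPM, by 3.27 ± 0.64, and by 2.58 without LPS replicate 3. Slc7a7, the cationic amino acid exchanger whose upstream stretch is shown above, rose by 0.69 ± 0.20 (adjusted p 0.0287), a call lost without any 1 of the control or LPS libraries (0.0628 to 0.161).

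The largest decrease of an amino acid transporter was that of Slc43a2, a facilitative carrier of branched-chain amino acids and methionine (ENSMUSG00000038178, chromosome 11, 75531694 to 75577575, mm10). It held 877 and 767 CPM in control and 96.0 and 84.3 CPM after LPS, with a log2 fold change of -3.19 ± 0.17 (adjusted p 1.34e-05). Each LPS library lay far below each control library. Slc36a1, a proton-coupled transporter of small amino acids in the lysosome, fell from 106 and 88.3 to 34.2 and 17.7 CPM (-1.91 ± 0.28). Slc7a4 was near its detection limit, at 1.90 and 2.08 CPM in control and 0.420 and 0.276 after LPS, and its call (-2.47 ± 0.56, adjusted p 0.00964) was lost without LPS replicate 3 (0.0705). It shares 13.3% of its exon bases with P2rx6 on the other strand. Glutamine carriers moved less. Slc1a5 had a log2 fold change of -0.44 ± 0.17 (adjusted p 0.0769, and 0.0440 with the replicate term), Slc38a1 of 0.72 ± 0.23 (0.0378) and Slc38a2 of 0.25 ± 0.25 (0.453). The call of Slc38a1 was lost without either control library, LPS replicate 1 or either IL-4 library (0.0612 to 0.203), and with library-size scaling (0.707). 2 further members passed with the replicate term and not without it, Slc38a7 (adjusted p 0.0182) and Slc7a6 (0.0266), both lower.

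Sugar transporters moved in opposite directions. Slc2a6 (ENSMUSG00000036067, chromosome 2, 27021363 to 27027998) held 64.0 and 194 CPM in control and 1288 and 1967 after LPS, a log2 fold change of 3.66 ± 0.65 (adjusted p 0.00327). The 2 replicate numbers differed within control, and the value was 3.01 without control replicate 1 and 4.63 without control replicate 3. Slc2a3, a high-affinity glucose transporter, fell from 15.6 and 12.9 to 4.20 and 1.93 CPM (-2.21 ± 0.36), and by 2.87 without LPS replicate 1. Slc37a2, an exchanger of glucose 6-phosphate and phosphate in the endoplasmic reticulum, fell from 430 and 392 to 86.2 and 66.5 CPM (-2.43 ± 0.19, adjusted p 5.44e-05). Slc45a4 fell by 2.24 ± 0.24. Slc45a3, which held 100 reads in all, did not pass (adjusted p 0.0896, and 0.00718 with the replicate term).

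Of 5 monocarboxylate and dicarboxylate transporters 1 fell and 0 rose, beside 18.6% and 21.8% of all genes. With the replicate term 5 changed, 2 of them higher and 3 lower, where 28.2% of all genes rose and 25.5% fell. Those lower were Slc16a7, Slc16a13 and Slc16a6. Slc16a10, a carrier of aromatic amino acids, held 85.5 and 164 CPM in control and 130 and 378 after LPS (1.03 ± 0.56, adjusted p 0.177, and 0.00129 with the replicate term). Replicate 3 was the higher in both groups. Slc16a1, a lactate and pyruvate transporter, held 23.7 and 14.5 CPM and then 44.4 and 16.6 (0.67 ± 0.47, adjusted p 0.290, and 0.0311 with the replicate term). Its sign turned without LPS replicate 1, at -0.21.

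Metal transporters included several of the larger increases. Slc39a14, which imports zinc and iron (ENSMUSG00000022094, chromosome 14, 70303469 to 70351425), rose from 18.2 and 10.6 CPM to 177 and 124 CPM, by 3.38 ± 0.28 (adjusted p 7.54e-05). Its relative Slc39a8 rose from 9.17 and 8.01 to 18.9 and 14.4 CPM (0.95 ± 0.21, adjusted p 0.00923), a call lost without control replicate 3 (0.0619) or LPS replicate 1 (0.0554). Slc30a4, which moves zinc out of the cytosol into vesicles, rose from 27.3 and 22.9 to 124 and 71.4 CPM (1.96 ± 0.27). The zinc exporter of the plasma membrane, Slc30a1, held 119 and 53.7 CPM in control and 156 and 149 after LPS, and did not pass (0.82 ± 0.35, adjusted p 0.0982), but did with the replicate term (0.00738). The ubiquitous zinc importer Slc39a1 rose from 163 and 200 to 304 and 311 CPM (0.76 ± 0.17, adjusted p 0.00825), a call lost without control replicate 1 (0.0878).

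For copper, Slc31a2 rose from 40.8 and 79.4 to 274 and 419 CPM, by 2.53 ± 0.50 (adjusted p 0.00534). Slc31a1, the high-affinity copper importer, rose from 110 and 137 to 204 and 282 CPM (0.97 ± 0.25, adjusted p 0.0169), a call lost without control replicate 1 (0.128) or LPS replicate 3 (0.101). Replicate 3 was the higher in both groups for both genes. Slc11a2, a proton-coupled importer of ferrous iron, rose from 78.9 and 112 to 303 and 299 CPM (1.66 ± 0.28). With library-size scaling the calls of Slc39a1, Slc31a1 and Slc39a8 were lost (adjusted p 0.340, 0.169 and 0.211).

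Mitochondrial carriers were the largest class. Of these 7 of 34 rose and 6 fell, shares near the 21.8% and 18.6% of all genes, with a median of -0.22. Slc25a22, a glutamate carrier (ENSMUSG00000019082, chromosome 7, 141429744 to 141437892), held 21.8 and 29.8 CPM in control and 254 and 306 after LPS, a log2 fold change of 3.44 ± 0.20 (adjusted p 1.64e-05). Both mitoferrins, which bring iron into mitochondria, rose. Slc25a37 went from 62.8 and 74.3 to 176 and 238 CPM (1.59 ± 0.19) and Slc25a28 from 13.1 and 9.20 to 48.7 and 33.4 CPM (1.88 ± 0.24). The most abundant carriers per length moved little, with log2 fold changes of -0.01 ± 0.14 for Slc25a5 and 0.18 ± 0.14 for the phosphate carrier Slc25a3 (adjusted p 0.951 and 0.352). Slc25a1, which exports citrate, and Slc25a10, the dicarboxylate carrier, passed with the replicate term and not without it (0.37 ± 0.18, adjusted p 0.130 and then 0.0442, and 0.48 ± 0.16, 0.0505 and then 0.0112). Slc25a10 also passed without either library of IL-4 then LPS (0.0343 and 0.0344). Slc25a45 fell by 1.55 ± 0.18.

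Nucleoside transporters held the largest increase of all 178 members. Slc28a2, a sodium-coupled transporter that concentrates purine nucleosides (ENSMUSG00000027219, chromosome 2, 122426477 to 122461137), went from 8.65 and 10.2 CPM to 273 and 105 CPM, a log2 fold change of 4.33 ± 0.52 (adjusted p 0.000463), and 3.47 without LPS replicate 1. Slc29a3, an equilibrative transporter of the lysosome, fell from 255 and 236 to 155 and 137 CPM (-0.75 ± 0.13). Its relative Slc29a2 held 34 reads in control and 2 after LPS, 11.3-fold lower with a 95% counting interval of 2.89 to 96.9. The call of Slc29a2 (adjusted p 0.0156) was lost without control replicate 1 (0.0591) or LPS replicate 1 (0.0610).

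Among peptide and vesicular carriers, Slc15a3 rose from 545 and 389 to 1325 and 1804 CPM (1.75 ± 0.24, adjusted p 0.000918). 28.1% of its exon bases overlap those of Tmem132a on the other strand, which held 7277 reads beside 64195 for Slc15a3. The related Slc15a4, which works at the endolysosome with innate immune receptors, held 56.0 and 107 CPM in control and 39.2 and 68.0 after LPS (-0.60 ± 0.38, adjusted p 0.238, and 0.00540 with the replicate term). Its groups overlapped. Slc17a5, which exports sialic acid from lysosomes, fell from 77.6 and 67.1 to 32.9 and 29.7 CPM (-1.21 ± 0.16). Slc17a9, a vesicular nucleotide carrier, was low, and its call (-1.64 ± 0.48, adjusted p 0.0277) was lost without any 1 of the control or LPS libraries (0.0522 to 0.128).

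Of 8 vitamin and heme transporters 6 fell and 1 rose, beside 18.6% and 21.8% of all genes. Slc46a3, a lysosomal protein of a family that includes the proton-coupled folate transporter, fell from 40.6 and 48.4 to 6.16 and 3.04 CPM (-3.27 ± 0.32), and by 3.87 without LPS replicate 1. Slc5a6, the sodium-coupled transporter of biotin and pantothenate, fell from 9.69 and 8.90 to 3.22 and 1.52 CPM (-1.97 ± 0.35, and -2.60 without LPS replicate 1), and the thiamine transporter Slc19a2 from 10.8 and 8.80 to 2.94 and 3.45 CPM (-1.61 ± 0.27). Slc48a1 fell from 424 and 431 to 318 and 243 CPM (-0.61 ± 0.19, adjusted p 0.0355). That call was lost without control replicate 1 (0.0772), control replicate 3 (0.0904) or LPS replicate 3 (0.202). The ascorbate transporter Slc23a2 rose, from 211 CPM in both control libraries to 435 and 522 CPM (1.18 ± 0.15).

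Among Golgi and endoplasmic reticulum carriers 10 of 21 fell, 1 rose and 10 did not pass, where 18.6% of all genes fell and 21.8% rose. The median log2 fold change over the 21 carriers was -0.50. 4 of them are named here for their known substrates after their values were seen. Slc35c1, which carries GDP-fucose, went from 36.8 and 47.8 to 21.98 and 27.5 CPM (-0.77 ± 0.21, adjusted p 0.0230). Slc35a1, the carrier of CMP-sialic acid, went from 15.8 and 13.3 to 7.98 and 7.46 CPM (-0.91 ± 0.28, 0.0338), and Slc35a2, the carrier of UDP-galactose, from 21.5 and 22.6 to 14.6 CPM in both LPS libraries (-0.59 ± 0.15, 0.0147). Each of these groups was free of overlap. The calls were lost without 1 library in turn, in Slc35a1 without any 1 of the control or LPS libraries (0.0549 to 0.130), in Slc35a2 without control replicate 3 (0.0580), LPS replicate 1 (0.0605) or LPS replicate 3 (0.0680), and in Slc35c1 without control replicate 3 (0.113) or LPS replicate 1 (0.114). Slc35a3, the carrier of UDP-N-acetylglucosamine, was the member of the class that rose (0.41 ± 0.12, adjusted p 0.0273), but its sign turned with library-size scaling (-0.19). Its call was lost without any 1 of the control, LPS or IL-4 libraries (0.0566 to 0.178). The most abundant per length, Slc35b1, which brings ATP into the endoplasmic reticulum, and Slc35a4 had log2 fold changes of 0.01 ± 0.13 and 0.04 ± 0.16.

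Among transporters of choline and amines, the choline transporter Slc44a1 rose from 139 and 159 to 645 and 628 CPM, by 2.09 ± 0.14 (adjusted p 3.14e-05). Slc6a12, a transporter of betaine and GABA named after its values were seen, rose from 39.98 and 63.8 to 95.9 and 212 CPM (1.57 ± 0.40, adjusted p 0.0158). Its call was lost without control replicate 1 (0.110) or LPS replicate 3, which gave 0.89 (0.0931). Slc6a4, the serotonin transporter, rose from 0.865 and 0.396 to 11.9 and 6.08 CPM (3.78 ± 0.52), and by 4.40 without control replicate 1. The taurine transporter Slc6a6 held 1107 and 1349 CPM in control and 1161 and 1146 after LPS, a log2 fold change of -0.09 ± 0.16 (adjusted p 0.683), and the creatine transporter Slc6a8 fell from 457 and 401 to 254 and 246 CPM (-0.78 ± 0.13). 2 of 3 fatty acid transport proteins fell, beside 18.6% of all genes. Slc27a1 went from 272 and 244 to 118 and 114 CPM (-1.15 ± 0.12) and Slc27a6 from 7.88 and 7.71 to 1.12 and 2.07 CPM (-2.28 ± 0.38).

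Of 24 inorganic ion transporters 6 rose and 5 fell, beside 21.8% and 18.6% of all genes. Slc12a4, a potassium and chloride cotransporter of volume regulation, rose from 48.1 and 49.4 to 129 and 193 CPM (1.73 ± 0.23). Slc8b1, the sodium and calcium exchanger of mitochondria, fell from 128 and 141 to 29.5 and 21.97 CPM (-2.39 ± 0.24), and Slc26a11, a sulfate transporter, from 31.4 and 19.9 to 2.52 and 1.38 CPM (-3.71 ± 0.51, the largest fitted decrease among called members). Of organic ion and drug transporters 2 of 8 fell and 0 rose, beside 18.6% and 21.8% of all genes. Slc22a4, the ergothioneine transporter, fell from 46.7 and 32.8 to 18.5 and 13.5 CPM (-1.31 ± 0.30, adjusted p 0.00951), a call lost without LPS replicate 3 (0.0611). Slc10a3 (-0.67 ± 0.22, adjusted p 0.0390) lost its call without control replicate 1, either LPS library or either library of IL-4 then LPS (0.0504 to 0.185), and it shares 12.8% of its exon bases with Ubl4a on the same strand. Of the 3 proteins that carry an Slc symbol without being transporters, the scaffold Slc9a3r1 rose (0.70 ± 0.19, adjusted p 0.0217), a call lost without control replicate 1 (0.0588), control replicate 3 (0.130) or LPS replicate 1 (0.122).

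IL-4 then LPS against IL-4 asked for the same response in cells that had received IL-4, and shares no library with LPS against control. 38 members rose and 50 fell, 21.3% and 28.1%, beside 20.7% and 18.6% of all genes, and the median was -0.27 beside -0.04. With the replicate term these were 43 and 67, beside 26% and 25.8% of all genes, and with library-size scaling 23 and 95, beside 12.6% and 43.5%. Fewer members fell without IL-4 replicate 1 or without IL-4 then LPS replicate 3, and the share over all genes was not worked out for these fits. 79 members were called in both arms, 36 higher and 43 lower and 0 in opposite directions. This was 88.8% of the members called without IL-4 and 89.8% of those called after it, beside 82.0% and 84.3% for all tested genes.

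**Figure D3:**
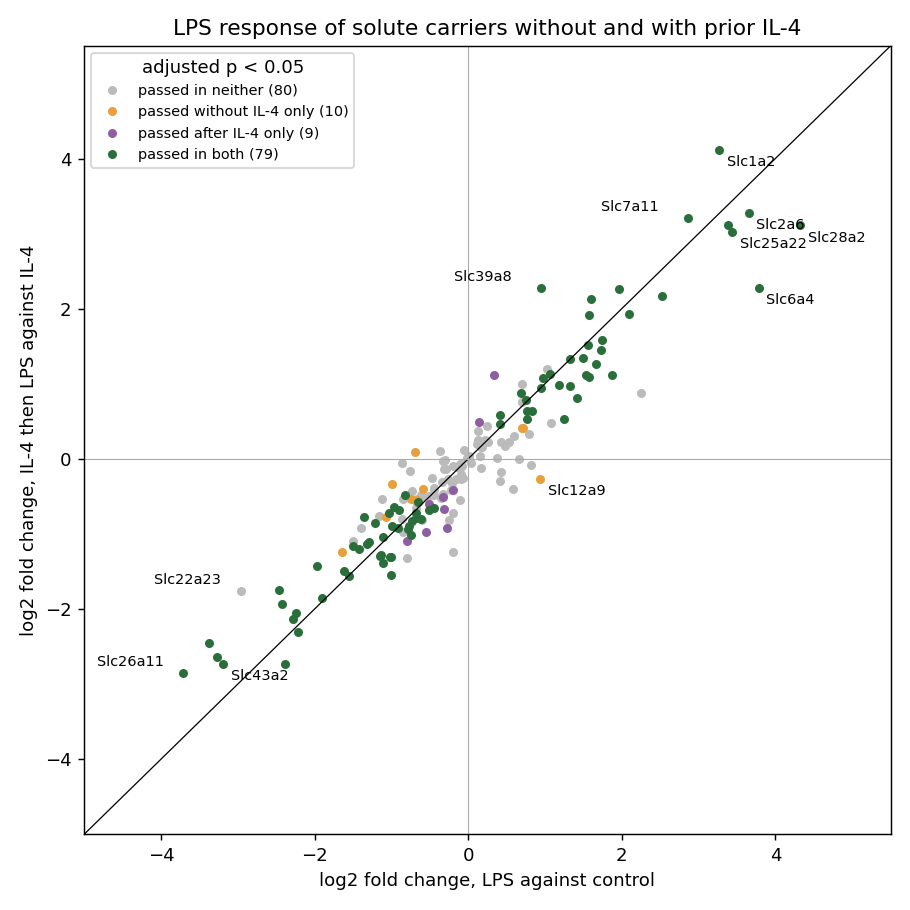
Log2 fold change of each of the 178 members in LPS against control (horizontal) and between IL-4 then LPS and IL-4 alone (vertical), with points coloured by whether they passed in both, in 1 or in neither. The line marks equal values, the axes share no library, and 167 of 178 points have the same sign on both.

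Across the members the log2 fold changes of both arms had the same sign in 93.8%, with Pearson's r 0.948 and Spearman's rho 0.934, beside 88.6% and an r of 0.927 over all tested genes. These are descriptions across genes, which are not independent replicates. After IL-4, Slc1a2 rose from 0.536 and 0.453 to 4.81 and 12.7 CPM (4.12 ± 0.66, and 3.25 without IL-4 then LPS replicate 3). Slc2a6 rose from 98.7 and 278 to 1546 and 2121 CPM (3.28 ± 0.64, and 4.24 without IL-4 replicate 3), Slc7a11 from 140 and 76.2 to 1030 and 960 CPM (3.21 ± 0.52), and Slc39a14 from 14.996 and 14.6 to 140 and 117 CPM (3.11 ± 0.28). As without IL-4, the groups of these members did not overlap.

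Slc28a2 rose from 7.59 and 8.43 to 92.9 and 45.7 CPM (3.11 ± 0.51, and 2.51 without IL-4 then LPS replicate 1), a lower level than in the LPS group, where it held 273 and 105 CPM. Slc25a22 rose from 22.7 and 24.9 to 183 and 205 CPM (3.03 ± 0.19). Slc31a2 rose by 2.17 ± 0.50 (adjusted p 0.0105), with a call lost without IL-4 then LPS replicate 3 (0.0532). Of those that fell, Slc43a2 went from 586 and 548 to 92.0 and 78.8 CPM (-2.73 ± 0.16), Slc8b1 from 171 and 142 to 28.4 and 18.6 (-2.73 ± 0.24) and Slc26a11 from 18.7 and 10.6 to 2.92 and 1.17 (-2.86 ± 0.51, and -3.64 without IL-4 then LPS replicate 1). Slc37a2 went from 351 and 289 to 91.3 and 77.1 (-1.93 ± 0.19). Slc29a2 held 60 reads and then 7, and its call (adjusted p 0.0217) was lost without any 1 of the 4 libraries compared (0.0753 to 0.133).

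IL-4 against control addressed the effect of the cytokine by itself. By edgeR's quasi-likelihood test 0 of the 178 rose and 0 fell, beside 0.0572% and 0.00817% of all genes. An unadjusted p under 0.05 in edgeR's test was found for 12 of the 178 members and for 892 of all 12234 genes. DESeq2 called 0 higher and 2 lower (0.514% and 0.386% of all genes), and the smallest adjusted p in edgeR's test was 0.191. With the replicate term 1 member rose and 4 fell, beside 1.5% and 0.858% of all genes. The macrophage markers summed to 18615 to 25426 CPM in control and 12903 to 17806 after IL-4. Most of this sum was Lyz2, at 13434 and 19576 CPM in control and 8662 and 12806 after IL-4. Lyz2 did not pass in edgeR's test (adjusted p 0.736, and 0.0522 with the replicate term). With that term 1 of the 10 markers rose, Mrc1, and 2 fell, Fcgr1 and Cd14. The 8 mast cell, basophil and eosinophil markers summed to 5.74 to 6.92 CPM in control and 15.96 to 18.5 after IL-4. Nearly all of this was Siglecf, at 6.92 and 5.74 CPM and then 18.4 and 15.7, which passed with the replicate term, and 5 of the 8 held no read. The part of these markers in the results was not tested. Among the members called with the replicate term, the largest difference was in Slc39a4, a zinc importer. It held 19.6 and 17.9 CPM in control and 7.23 and 5.98 after IL-4. Its groups did not overlap, and the log2 fold change was -1.505 ± 0.29 (adjusted p 0.191, 0.0107 with the replicate term, and 0.00506 in DESeq2). The mitoferrin Slc25a37 held 62.8 and 74.3 CPM and then 33.9 and 37.5 (-0.94 ± 0.19, adjusted p 0.202, 0.00392 with the replicate term and 0.00863 in DESeq2).

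Slc43a2 and Slc26a11, which fell strongly after LPS, were also lower after IL-4 alone with the replicate term (adjusted p 0.0248 and 0.0452), at 586 and 548 and at 18.7 and 10.6 CPM. Without the term their adjusted p was 0.426 and 0.736. Slc1a5, the sodium-coupled glutamine importer, held 35.7 and 40.9 CPM in control and 63.3 and 61.6 after IL-4 (0.71 ± 0.17, adjusted p 0.299, and 0.0496 with the replicate term). Slc48a1, the highest member per length at rest, held 424 and 431 CPM in control and 628 and 575 after IL-4, which did not pass in either fit (0.49 ± 0.19, adjusted p 0.612, and 0.0929 with the term). Slc25a5 held 202 and 236 CPM and then 310 and 291 and did not pass either (adjusted p 0.501 and 0.0887).

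**Figure D4:**
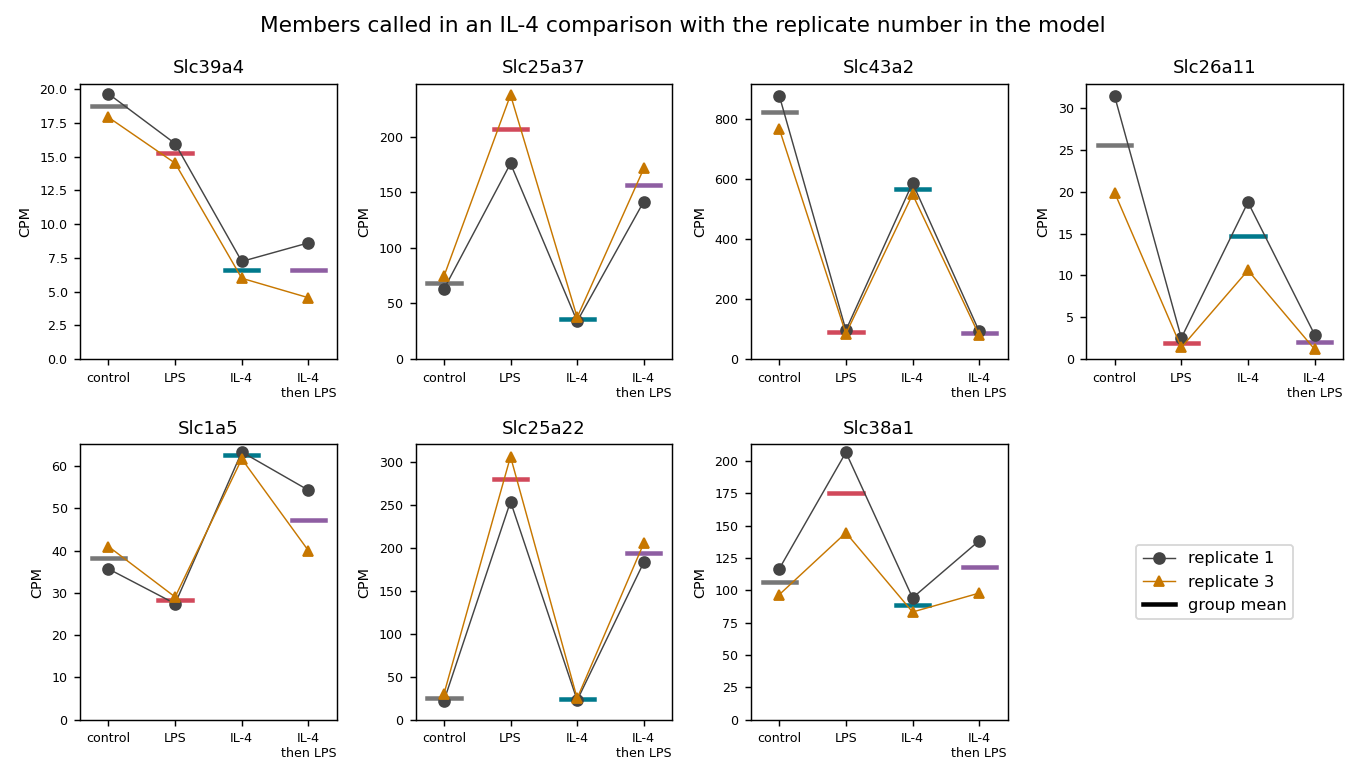
Level in CPM (linear axes from 0) by group of the 7 members that passed with the replicate term in a comparison of cells with and without IL-4, with points joined by replicate number and bars at group means. Slc39a4 stands at 17.9 to 19.6 CPM in control and 5.98 to 7.23 after IL-4, and Slc1a5 at 35.7 to 40.9 and 61.6 to 63.3.

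IL-4 then LPS against LPS asked whether prior IL-4 changed the level reached after LPS, and shares no library with IL-4 against control. Again 0 members rose and 0 fell in edgeR's test, beside 0.049% and 0.0163% of all genes. In that test 22 of the 178 members had an unadjusted p under 0.05, as did 1040 of all 12234 genes. DESeq2 called 0 members (0.465% and 0.434% of all genes). With the replicate term 0 rose and 3 fell, beside 1.08% and 1.22%. Slc39a4 was the member lower with IL-4 in both comparisons, at 15.96 and 14.5 CPM after LPS and 8.61 and 4.54 after IL-4 then LPS (-1.22 ± 0.30, adjusted p 0.294, and 0.0354 with the term). Slc25a22 held 254 and 306 CPM and then 183 and 205 (adjusted p 0.460, and 0.0417 with the term), and the glutamine carrier Slc38a1 206 and 144 CPM and then 138 and 97.8 (0.537, and 0.0432 with the term). Slc28a2 (-1.45 ± 0.46) and Slc1a5 (0.74 ± 0.17) did not pass with the term (0.0557 and 0.0570). The members' log2 fold changes in this comparison and in IL-4 against control had the same sign in 64.6%, with an r of 0.399, beside 64.6% and 0.415 over all genes.

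The last comparison asked whether the LPS response itself differed between cells with and without prior IL-4. 0 members and 0 of all genes passed in edgeR's test (0% in each direction). In that test 4 of the 178 members had an unadjusted p under 0.05, as did 322 of all 12234 genes. DESeq2 called 0 members (0.0142% and 0.00475% of all genes). With the replicate term 0 members passed, beside 0% and 0.00817% of all genes. 2 members are named after their values were seen. Slc39a8 held 9.17 and 8.01 CPM in control and 18.9 and 14.4 after LPS, and 5.27 and 5.44 after IL-4 and 23.6 and 28.3 after IL-4 then LPS. Its LPS response was thus 0.95 ± 0.21 and 2.28 ± 0.22, and the difference of 1.33 ± 0.30 had an adjusted p of 0.360 with the replicate term. Slc12a9 had responses of 0.94 ± 0.31 and -0.27 ± 0.31, with a difference of -1.21 ± 0.44 (adjusted p 0.656 with the term, and 0.0225 without the filter on low counts). The difference was -0.61 without LPS replicate 1. Its call after LPS (adjusted p 0.0414) was lost with library-size scaling (0.362), and when any 1 library other than LPS replicate 3 was left out (0.0574 to 0.270).

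Genes that are counted among solute carriers but bear other symbols were taken from a list of 46, of which 37 were tested. After LPS 7 rose and 12 fell, beside 21.8% and 18.6% of all genes, and after IL-4 6 rose and 15 fell in response to LPS, beside 20.7% and 18.6%. The organic anion transporter Slco3a1 rose from 11.9 and 16.02 to 322 and 466 CPM (4.82 ± 0.26), and the heme exporter Flvcr1 fell from 127 and 102 to 24.6 and 15.3 CPM (-2.52 ± 0.31). The lysosomal cystine exporter Ctns fell from 66.2 and 56.9 to 18.2 and 21.1 CPM (-1.65 ± 0.17). Of 22 partners and drivers of transport 15 were tested, and 8 rose and 3 fell after LPS, beside the same 21.8% and 18.6%. Among those that rose was the zinc-binding metallothionein Mt1 (91.6 and 90.9 to 332 and 185 CPM, 1.504 ± 0.37). The monocarboxylate carrier chaperone Emb fell from 376 and 310 to 210 and 166 CPM (-0.87 ± 0.19).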

How the data were processed

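RNA sequencing was made from 8 libraries in 4 groups of 2. The deposited table holds raw read counts per gene, whole numbers, with gene lengths in bases. The submitters' processing notes name HISAT2, StringTie, HTSeq and the genome build mm10, without versions. The sources used here do not say whether counting used strand, so overlapping and antisense genes cannot be told apart. 6 count columns that match no label were left aside. Counts per library were 7924932 to 9431852. Intervals cover counting error only.

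Genes were filtered with filterByExpr (12234 of 54532 kept), scaled by TMM (factors 0.786 to 1.252) and tested with edgeR 4.0.16 (R 4.3.3) by its quasi-likelihood test, with a mean for each group, 1 estimate of spread from the 8 libraries (4 residual degrees of freedom) and the Benjamini-Hochberg method across all genes. A gene was called, and is said to have risen or fallen, at an adjusted p under 0.05. The SE of a log2 fold change is its size over the square root of F. Alternatives were a replicate term, other scalings, DESeq2 1.42.0, no filter, and leaving out each library. Between groups, libraries with the same number had correlated deviations from their group means. With 2 libraries a group both numbers give the same r, so there were 6 distinct values, 1 for each pair of groups (0.343 to 0.524), and numbers were taken to pair libraries. The pairing comes from these values and the numbers in the labels. Replicates differed beyond counting noise (chi-square per degree of freedom 20.1 to 25.7). On simulated data for LPS against control, with 100 genes changed at each size among 12234, 34% of 2-fold and 93% of 4-fold changes were recovered, with 6 false among 133 calls. The simulation gave every gene the same spread and had no replicate effect. It also changed far fewer genes than were called after LPS. These shares therefore need not hold for the real libraries.

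Members and gene lists were chosen with earlier results of these data known. Substrate classes follow SLC families. Slc4a1ap, which is no transporter, was moved out of its family's class after its values were seen. Named members are the 15 largest called changes per direction after LPS, called members of the other comparisons (at most 10 per direction), those called with the replicate term but not without it, the 2 highest per length in each class, and 22 fixed genes. 7 members outside this rule, Slc6a12, Slc7a7, Slc12a9 and 4 of the SLC35 family, were chosen after their values were seen. Slc16a7 is named as the only called member of its class after LPS. Coordinates are those of the table, and 169 of 178 members had the same ones in GENCODE M21. Of 178 members, 135 were found among RefSeq promoters.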

Additional observations from a re-analysis of the deposited data

How the results depend on the processing

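The term for the replicate number, which pairs the libraries, raised the count of members after LPS from 39 to 48 higher and from 50 to 69 lower, and between IL-4 then LPS and IL-4 alone from 38 to 43 and from 50 to 67. With this replicate block IL-4 against control had 1 member higher and 4 lower, in place of 0 and 0, and IL-4 then LPS against LPS 3 lower. DESeq2 gave 2 lower in IL-4 against control. Without the filter on low counts there were 1 higher and 2 lower in IL-4 against control, beside 0.94% and 0.77% of all genes. In IL-4 then LPS against LPS there were then 2 higher and 4 lower, beside 0.82% and 1.07%. The difference between LPS responses had 0 higher and 2 lower, beside 0.076% and 0.18%, and the cause was not tested. Library-size scaling gave 24 higher and 104 lower after LPS and 23 and 95 between IL-4 then LPS and IL-4 alone. The counts that follow, of fits without 1 library and of calls kept, have no share over all genes beside them. They do not show whether members lost more calls than other genes. Leaving out 1 library gave 27 to 39 higher and 32 to 50 lower after LPS, and 28 to 39 higher and 29 to 52 lower between IL-4 then LPS and IL-4 alone, in fits with fewer samples that assume the lone library of a group to vary like the other groups. Of the 39 and 50 members called after LPS, 23 and 28 kept their call in all 13 alternatives, and of the 38 and 50 called between IL-4 then LPS and IL-4 alone, 21 and 24 did.

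2 called members in each arm turned in sign under at least 1 alternative, Slc35a3 and Slc30a7 after LPS and Slc30a7 and Slc38a6 between IL-4 then LPS and IL-4 alone. The other named members whose sign turned had not passed in the comparison concerned. Of the named members, 10 lost their LPS call with library-size scaling (Slc12a9, Slc31a1, Slc35a3, Slc38a1, Slc39a1, Slc39a8, Slc6a12, Slc7a7, Slc7a8 and Slc9a3r1), and 5 in DESeq2 (Slc10a3, Slc17a9, Slc35a2, Slc35a3 and Slc7a7). Library-size scaling, under which all genes shift down, gave negative log2 fold changes after LPS for Slc43a3 (-0.074), Slc25a10 (-0.13), Slc4a2 (-0.18), Slc35a3 (-0.19), Slc25a1 (-0.24), Slc38a2 (-0.36), Slc25a3 (-0.43), Slc4a1ap (-0.48), Slc35a4 (-0.56) and Slc35b1 (-0.59), and between IL-4 then LPS and IL-4 alone for Slc9a3r1 (-0.11) and Slc38a1 (-0.11). Slc35b1 and Slc35a4, near 0, also turned without the filter (-0.039 and -0.0031). Leaving out 1 library gave ranges that cross 0 after LPS for Slc35b1 (-0.12 to 0.088), Slc35a4 (-0.098 to 0.17), Slc25a5 (-0.18 to 0.068), Slc6a6 (-0.29 to 0.021), Slc4a1ap (-0.066 to 0.23) and Slc16a1 (-0.21 to 1.21), and between IL-4 then LPS and IL-4 alone for Slc5a3 (-2.01 to 0.15). Depth limits the members with few reads, of which 11 held fewer than 200 over the 8 libraries.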
